A study of Mus musculus with 4 samples.

Results

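Collagens are the main structural proteins of the extracellular matrix (ECM), and each molecule is a triple helix of 3 chains. The fibrillar chains build the fibrils that give bone its toughness and carry its mineral. The type IV chains form the sheet-like network of basement membranes, and the type VI chains form beaded filaments around cells. A total of 8 collagen genes were examined among the 84 genes of a qPCR array. They were the fibrillar genes *Col1a1* (array well A11), *Col2a1* (A12), *Col3a1* (B01) and *Col5a1* (B05), the basement membrane genes *Col4a1* (B02), *Col4a2* (B03) and *Col4a3* (B04), and *Col6a1* (B06). They were chosen by gene family and not by any measured value. The deposited wells carry positions only. *Col1a1* was placed through the changes printed for it in the study, and the other 7 names rest on the alphabetical layout of the array. The 11 genes that could be placed through printed changes, from *Adamts2* in A02 to *Thbs1* in G03, stood in alphabetical order along the plate.

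The study asked whether loss of *Vegf*, the gene of the angiogenic factor VEGF, alters matrix genes differently in male and female osteoblasts (OBs), the cells that form bone. Long-bone OBs were taken from 4-day-old *Vegf*fl/fl mice, separately for each sex, and were used at passage 1. All 4 groups thus carried floxed *Vegf* alleles and all were infected with an adenovirus for 6 days, followed by 24 h in medium with 1% serum. The virus of the OBVEGFKO cultures expressed Cre-recombinase and GFP, which removes *Vegf*, whereas that of the WT controls expressed GFP alone. Each sex thus gave a WT and an OBVEGFKO culture, and 500 ng of RNA from each of these 4 groups was turned into 1 cDNA. The number of animals behind each culture is not given in the sources used here, and no sorting of infected cells is described. *Vegf* mRNA was not analysed here. The study measured VEGF protein in the culture medium by immunoassay and reports its loss in OBVEGFKO cells of both sexes. Since each group is 1 culture, no value below has a replicate error and no comparison was tested. A difference between the sexes cannot be told apart from one between the cell preparations. Whether the WT and OBVEGFKO cultures of a sex came from separate preparations is not given in the sources used here.

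Each well of the array gives a threshold cycle (Ct), the point of the PCR at which product is first detected, and 1 cycle less stands for 2-fold more template. The highest Ct in the data was 35, which was read as the limit of detection. As a check of the cell type, the OB genes *Col1a1*, *Sparc* (osteonectin) and *Spp1* (osteopontin) ranked between 2 and 8 of the 84 wells from the lowest Ct in each of the 4 cultures.

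*Col3a1*, which encodes the type III chain found with type I collagen in young and pliable matrices, had the lowest Ct of the 8 collagens in every culture. In female cells its Ct was 16.69 in the WT and 13.69 in the OBVEGFKO culture, and in male cells 15.95 and 13.51. It was also the lowest of all 84 wells in 3 cultures and the second lowest in female OBVEGFKO cells. *Col1a1*, the main chain of bone collagen, followed with Ct values of 18.87 (WT) and 15.56 (OBVEGFKO) in female cells and of 18.46 (WT) and 15.19 (OBVEGFKO) in male cells. Within a culture, *Col1a1* crossed the threshold between 1.68 and 2.51 cycles after *Col3a1*. A Ct difference between assays equals a ratio of transcripts only if both amplify alike, which was not measured.

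*Col6a1* stood next, with Ct values of 20.44 and 17.34 in the female and 20.36 and 17.58 in the male cultures, WT before OBVEGFKO. Its chain is part of type VI collagen. *Col5a1*, whose chain takes part in starting type I fibrils and limiting their width, had Ct values of 21.48, 18.20, 20.89 and 18.28 in the same order of cultures. *Col4a1* followed at 22.34, 18.97, 22.15 and 19.54, and *Col4a2* at 23.88, 20.76, 23.39 and 20.52. The order from *Col3a1* through *Col1a1*, *Col6a1*, *Col5a1* and *Col4a1* to *Col4a2* was thus the same in all 4 cultures. Neighbours in it were as close as 0.53 (WT) and 0.70 cycles (OBVEGFKO) in male cells, between *Col6a1* and *Col5a1*, and 0.86 (WT) and 0.77 cycles (OBVEGFKO) in female cells, between *Col5a1* and *Col4a1*, and with 1 culture per group it was not tested whether such neighbours differ.

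*Col2a1*, the collagen of cartilage, had a Ct of 25.05 in the WT and 22.19 in the OBVEGFKO culture of female cells, and of 28.63 and 24.63 in those of male cells. Its distance from *Col1a1* was 6.18 and 6.63 cycles in the female cultures and 10.17 and 9.44 cycles in the male cultures. *Col4a3*, a type IV chain typical of kidney and lung basement membranes, was at the limit of 35 in both WT cultures and was detected at 31.01 in female and 31.42 in male OBVEGFKO cells. The collagens therefore ranged from the most readily detected to among the least detected transcripts of the array.

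**Figure D1:**
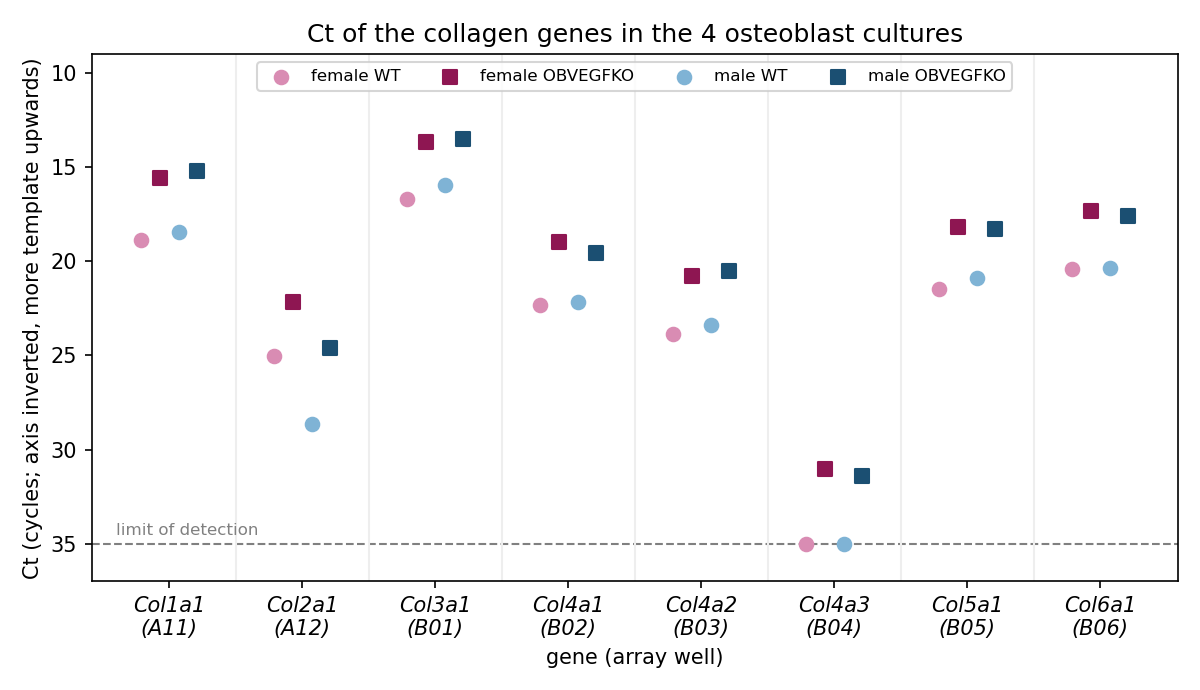
Ct in cycles (inverted axis) of the 8 collagen genes in the 4 cultures, each point 1 culture, with circles for WT, squares for OBVEGFKO and a dashed line at the limit of 35. Every gene had a lower Ct in OBVEGFKO than in WT cells of the same sex, and *Col2a1* was the gene with a wide gap between the sexes, at 25.05 in female and 28.63 in male WT cells.

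The first question was how the collagens differed between OBVEGFKO and WT cells. Before any normalisation, all 8 collagens had a lower Ct in OBVEGFKO than in WT cells of the same sex. In female cells the 7 collagens measured in both cultures were lower by 2.86 (*Col2a1*) to 3.37 cycles (*Col4a1*), and in male cells by 2.44 (*Col3a1*) to 4.00 cycles (*Col2a1*). All 77 measured wells of the array moved in this way, although equal masses of RNA were used. Their median was lower by 3.28 cycles in the female and by 2.84 in the male comparison. With limits counted, 100% of 82 wells in female and 97.5% of 81 wells in male cells were at least 2-fold higher in OBVEGFKO cells. The housekeeping wells that the study used for normalisation were not analysed here, and the part of a difference in cDNA input in this shift was not tested. Each culture was therefore centred on the wells of the array, and a log2 change below states how far a gene departed from them.

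On this scale the collagens stayed close to the array in female cells. The log2 changes from WT to OBVEGFKO were −0.01 for *Col1a1*, −0.32 for *Col3a1*, −0.04 for *Col5a1* and −0.46 for *Col2a1* among the fibrillar genes. They were 0.05 for *Col4a1* and −0.20 for *Col4a2*, and −0.22 for *Col6a1*. The median of the 7 measured collagens was −0.20, against −0.04 over the 77 wells, and the 7 values lay between −0.46 and 0.05. With the median Ct of the array as the reference, the median of the collagens was −0.92 and that of all wells −0.76, so that this choice moved the collagens and the array alike and placed all 7 below 0. None of the 7 was at least 2-fold higher or lower, where the shares over the 77 measured wells were 7.79% and 2.60%. With limits counted as they stand, the counts were 0 of 8 in each direction, against 8.54% and 2.44% of 82 wells. With the median Ct as the reference, *Col2a1* (−1.18) and *Col3a1* (−1.04) were past 2-fold lower, as were 28.0% of the wells.

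In male cells the range of the measured collagens was wider through *Col1a1* and *Col2a1*, and the other 5 lay between −0.46 and −0.03. *Col3a1* was the lowest, with a log2 change of −0.46 from WT to OBVEGFKO, followed by *Col4a1* and *Col5a1* at −0.29 each, *Col6a1* at −0.12 and *Col4a2* at −0.03. *Col1a1* stood at 0.37, which is 1.29-fold higher, and ranked 16 of 77 wells from the highest. These 2 genes above and 5 below 0 kept their sides under every offset tried, whereas all 7 were above 0 without normalisation. *Col2a1*, the other gene above 0, was 2.14-fold higher (log2 1.10), ranked 4 of 77, and was the single measured collagen past 2-fold. It was 1 of the 7 measured collagens at least 2-fold higher, against 6.49% of the 77 measured wells, and none was at least 2-fold lower, against 1.30%. With limits counted as they stand, the counts were 1 and 0 of 8, against 7.41% and 3.70% of 81 wells. The median of the 7 measured collagens was −0.12, close to the −0.06 of the 77 wells.

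For *Col4a3*, which was at the limit in the WT cultures, only a lower limit can be given, and whether it was past 2-fold is not known. Relative to the array, OBVEGFKO cells held at least 1.59-fold more of it than WT cells in females and at least 1.60-fold more in males. With the median Ct of the array as the reference, the lower limit of the log2 change in females was −0.05, which leaves its direction undetermined. Wells with high Ct values scattered more. The spread of the log2 change over wells, as a robust SD (from the median absolute deviation), was 1.22 in female and 0.70 in male cells over the 20 wells whose highest Ct lay past 30 but below 35. Over the 42 wells that never passed a Ct of 26 it was 0.28 and 0.36.

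These 42 wells include 6 of the collagens, all but *Col2a1* and *Col4a3*. Their log2 changes between OBVEGFKO and WT cells lay between −0.32 and 0.05 in female and between −0.46 and 0.37 in male cells. The robust SD over the wells also holds true differences between genes.

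The balance between 2 collagens of the same culture needs no normalisation. The Ct gap between *Col3a1* and *Col1a1* was 2.18 cycles in female WT and 1.87 cycles in female OBVEGFKO cells, and 2.51 cycles in male WT and 1.68 cycles in male OBVEGFKO cells. *Col1a1* thus gained on *Col3a1* by 0.31 cycles in female and by 0.83 cycles in male cells. The gap from *Col1a1* to *Col5a1* was 2.61 and 2.64 cycles in female WT and OBVEGFKO cells, and 2.43 and 3.09 cycles in male WT and OBVEGFKO cells. In male cells *Col1a1* gained on every other collagen measured in both cultures except *Col2a1*, by 0.40 (*Col4a2*) to 0.83 cycles (*Col3a1*). In female cells the same shifts ran from −0.06 (*Col4a1*) to 0.31 cycles (*Col3a1*). Within a sex all these shifts share the same *Col1a1* wells, so they are not separate observations.

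**Figure D2:**
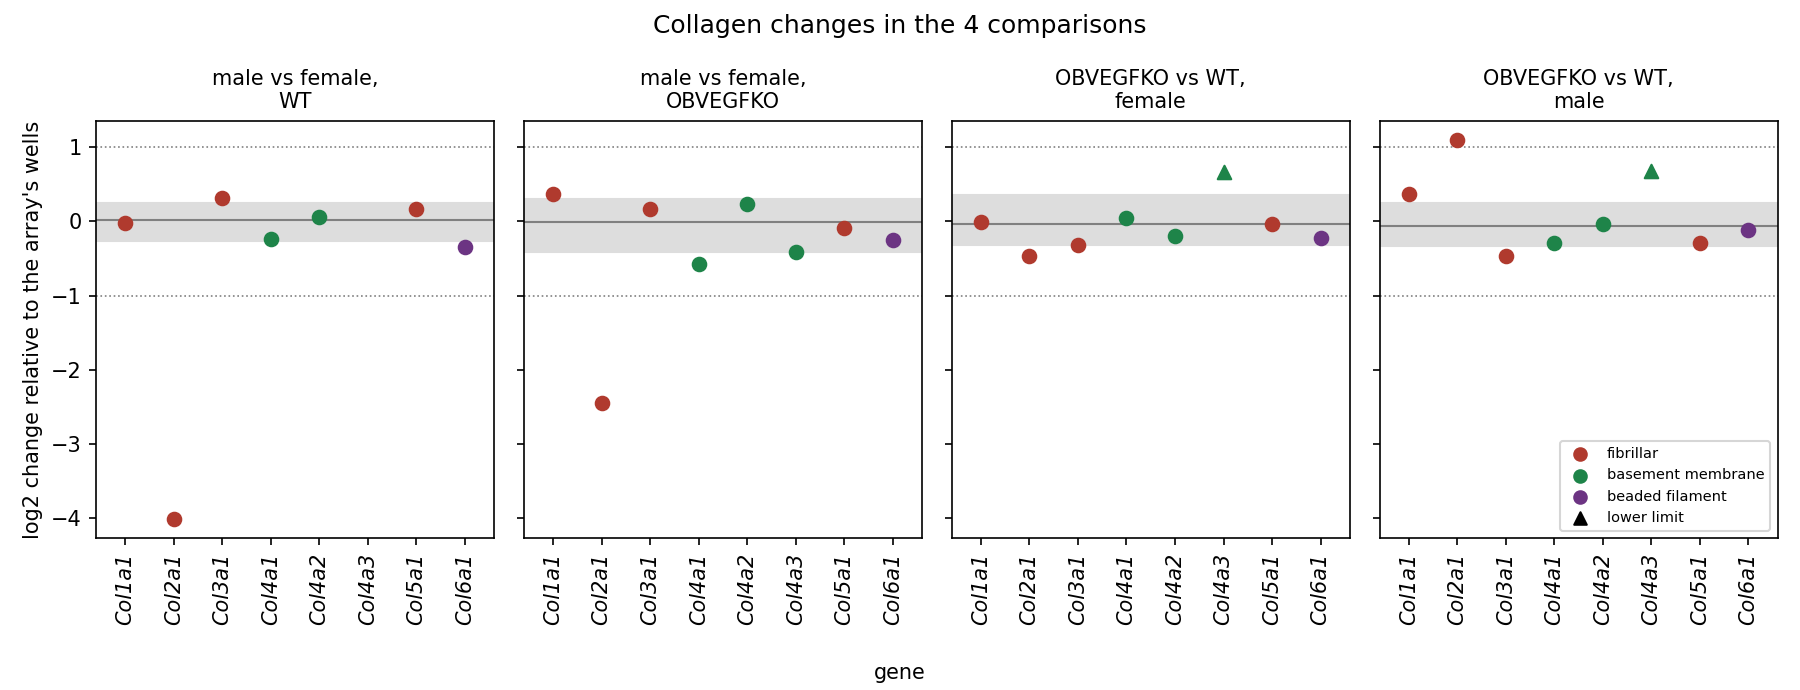
Log2 change of each collagen relative to the wells of the array in the 4 comparisons, with the interquartile range of all measured wells in grey, their median as a line, 2-fold changes as dotted lines, circles for measured changes and triangles for lower limits. *Col2a1* departed by −4.01 and −2.45 in the comparisons of male with female cells, and by 1.10 between OBVEGFKO and WT males, while the other measured changes stayed within 2-fold of the array on this scale.

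The second question was how the sexes differed. *Col2a1* was the collagen that differed most between the male and female cultures, of which each genotype had 1 per sex. Its Ct was 3.58 cycles higher in male than in female WT cells and 2.44 cycles higher in OBVEGFKO males than in OBVEGFKO females, so that both male cultures lay on the same side of their female counterparts. The median difference over the measured wells was 0.44 cycles lower in male WT cells and 0.00 cycles in OBVEGFKO cells, whereas over all 84 wells the OBVEGFKO cultures had a median Ct of 21.92 (female) and 22.56 (male). Relative to the array, *Col2a1* was 16.1-fold lower in male WT cells (log2 −4.01) and 5.46-fold lower in male OBVEGFKO cells (log2 −2.45). It was the lowest of the 76 wells measured in both WT cultures and the fourth lowest of 79 in the OBVEGFKO cultures.

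The direction of the *Col2a1* difference was the same under all 7 alternatives of scaling and efficiency, with log2 values from −4.03 to −3.58 in WT and from −2.47 to −1.80 in OBVEGFKO cells. Over the 14 wells whose highest Ct lay past 26 and up to 30, the robust SD of the log2 difference between the sexes was 0.31 in WT and 0.71 in OBVEGFKO cells. *Col2a1* was read in 1 well per culture. The array also held wells with large departures in a single culture. A total of 4 wells departed by more than 4 on the log2 scale in any comparison, namely *Col2a1* and 3 unnamed wells given by position because of their values. The female OBVEGFKO culture stood apart in well E01, at 13.67 against 28.83 to 31.97 in the others, and in well F06, at 15.65 against 35. The female WT culture stood apart in well G06, at 30.02 against 19.30 to 22.39. The Ct of *Col2a1* was higher in the male than in the female culture in both genotypes. Whether any of these departures came from the reading of a single well was not tested.

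*Col2a1* is made by chondrocytes, and it was the only gene in the marker list of that cell type. Whether the cultures of the sexes held different shares of cartilage cells was not tested, and fewer such cells cannot be told apart from less *Col2a1* RNA per cell. Relative to the array, the OB markers differed between male and female WT cells by −0.02 for *Col1a1*, −0.24 for *Sparc* and 0.01 for *Spp1* on the log2 scale. Between OBVEGFKO cells they differed by 0.36, 0.42 and 0.01, where *Col2a1* was lower in males.

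The remaining collagens differed little between male and female WT cells. *Col3a1* had a log2 difference of 0.31, *Col5a1* of 0.16 and *Col4a2* of 0.06. *Col4a1* stood at −0.24 and *Col6a1* at −0.35, and these turned to 0.19 and 0.08 without normalisation. The median of the 7 measured collagens was −0.02, against 0.01 over the 76 wells, and without normalisation it was 0.41 and that of the wells 0.44. In this comparison 1 of 7 collagens, *Col2a1*, was at least 2-fold lower in male cells, against 8.75% of all wells, and none was at least 2-fold higher, against 3.75%. Both WT cultures had *Col4a3* at the limit, so that no difference can be given for it.

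Between OBVEGFKO cultures, *Col1a1* was 1.28-fold higher in the male one (log2 0.36), *Col4a2* 1.17-fold higher and *Col3a1* 1.13-fold higher. *Col4a1* was 1.49-fold lower in male cells (log2 −0.58), *Col4a3* 1.34-fold lower and *Col6a1* 1.19-fold lower, while *Col5a1* had a log2 difference of −0.09. The median of the 8 collagens was −0.17 and that of the 79 wells −0.01. With the median Ct of the array as the reference, the median of the collagens turned to 0.48 and that of all wells to 0.64, which placed *Col4a1* (0.07), *Col4a3* (0.23), *Col5a1* (0.56) and *Col6a1* (0.40) above 0. With the mean Ct as the reference these medians were 0.12 and 0.28. The direction of the family as a whole in this comparison was therefore set by the scaling. *Col2a1* was 1 of 8 collagens at least 2-fold lower, against 11.0% of all wells, and no collagen was at least 2-fold higher, against 4.88%, except *Col1a1* (log2 1.01) with the median Ct as the reference, where 22.0% of the wells were.

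The third question was whether the effect of OBVEGFKO differed between the sexes. The male effect minus the female effect was 1.56 on the log2 scale for *Col2a1*, which ranked 3 of 76 wells from the highest, since its log2 change was 1.10 in male and −0.46 in female cells. The gap between the sexes in *Col2a1* was therefore narrower in OBVEGFKO than in WT cells, at 2.44 against 3.58 cycles. *Col1a1* had a difference of 0.38, *Col4a2* of 0.17 and *Col6a1* of 0.10. *Col3a1* stood at −0.14, *Col5a1* at −0.25 and *Col4a1* at −0.34. Without normalisation *Col1a1* stood at −0.04, and with the median Ct of the array as the reference all 7 were above 0, from 0.31 (*Col4a1*) to 2.21 (*Col2a1*). The sign was thus set by the scaling for every collagen but *Col2a1*, which was at 1.14 or above in all of them. One collagen, *Col2a1*, had a male effect at least 2-fold above the female effect among the 7 measured, against 10.5% of the wells, and none at least 2-fold below it, against 6.58%. Under the median Ct reference *Col1a1* (1.03) was past 2-fold above as well, which made 2 of 7, against 23.7% of the wells.

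The genes *Col4a1* and *Col4a2* encode the chains of the most widespread type IV collagen, in which a pair of α1 chains joins with 1 α2 chain. They are neighbours on mouse chromosome 8 and are read in opposite directions from a common start region. In the RefSeq promoter windows of GRCm38.p6, the *Col4a2* model starts on the plus strand at the first base of chr8:11312805-11312826 and the *Col4a1* model on the minus strand at the last, so that both models share these 22 bases. The stretch is shown, from the plus strand, because it is where the models of this pair overlap.
Col4a1 and Col4a2 shared start: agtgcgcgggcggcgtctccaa
The Ct gap between *Col4a1* and *Col4a2* varied between the cultures. Among WT cells it was 1.54 cycles in females and 1.24 in males, and among OBVEGFKO cells 1.79 and 0.98. The gap was wider in both female cultures than in both male cultures. From WT to OBVEGFKO it widened by 0.25 cycles in female and narrowed by 0.26 cycles in male cells. Each gap rests on single wells, and whether it truly varied was not tested. Over the 42 wells that never passed a Ct of 26, the robust SD of this log2 change was 0.28 in female and 0.36 in male cells. The centred level of *Col4a1* spanned 0.58 cycles over the 4 cultures and that of *Col4a2* 0.26 cycles.

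The collagens were also compared by their whole pattern, as the root mean square difference between the centred Ct values of 2 genes over the 4 cultures. Among the 21 pairs of the 7 genes detected in all cultures, the most alike were *Col4a2* and *Col5a1* at 0.12 cycles, *Col4a1* and *Col6a1* at 0.13 cycles, and *Col3a1* and *Col5a1* at 0.15 cycles. *Col4a1* and *Col4a2* ranked 12 of 21 at 0.31 cycles, and *Col1a1* and *Col3a1* ranked 13 at 0.32 cycles. The least alike pairs all held *Col2a1*, with *Col3a1* at 1.82, *Col4a2* at 1.74 and *Col1a1* at 1.73 cycles. *Col3a1* and *Col5a1* are both fibrillar, whereas the other most alike pairs joined genes of different classes, and whether likeness follows class was not tested. The points of such a pair share the same 4 cultures, and the values are a description of them.

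A total of 6 genes of collagen processing, binding and cleavage and of the basement membrane were taken from those with changes printed in the study. They were *Adamts2*, which removes the amino-terminal propeptide of fibrillar procollagen, *Sparc*, a collagen-binding matrix protein, and *Itga2*, a subunit of a collagen receptor. The others were the collagenase gene *Mmp13*, the gelatinase gene *Mmp9* and *Lama1*, a laminin chain of basement membranes. The study picked these 6 genes from the same cultures, so that their counts describe them and are not independent evidence of a direction. In female cells, the log2 changes from WT to OBVEGFKO relative to the array were −1.03 for *Itga2*, −0.99 for *Adamts2*, −0.87 for *Sparc*, −0.70 for *Lama1*, 0.08 for *Mmp9* and 0.79 for *Mmp13*, while *Col1a1* was at −0.01. Before normalisation all 6 were higher in OBVEGFKO cells, with a Ct lower by 2.29 (*Itga2*) to 4.11 cycles (*Mmp13*), so that the negative values state a smaller shift than that of the array. In this comparison 1 of the 6 genes was past 2-fold lower, against 2.44% of all wells, and none past 2-fold higher, against 8.54%. *Itga2* was not past 2-fold at an efficiency of 1.9 or with the offset from wells that never passed a Ct of 30 (1.22% of wells each). *Adamts2* passed as well with the offset made without the collagen wells (4.88%). Under the mean or the median Ct reference, *Itga2*, *Adamts2*, *Sparc* and *Lama1* were all past 2-fold lower, against 11.0% and 28.0% of the wells. In male cells none of the 6 was past 2-fold higher or lower, against 7.41% and 3.70% of all wells, and they ran from −0.26 (*Adamts2*) to 0.94 (*Lama1*). *Lama1* thus stood above the array in male and below it in female cells. Its Ct was high, at 33.36 (WT) and 30.74 (OBVEGFKO) in female and 33.31 and 29.47 in male cells. Over the 20 wells whose highest Ct lay past 30 but below 35, the robust SD was 1.22 in female and 0.70 in male cells. These wells include *Lama1*. The lower limit of *Col4a3* was above the array in male and female cells, at 0.68 and 0.67. Under the median Ct reference the limit of *Col4a3* in female cells was −0.05, so that its direction there is undetermined.

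Between male and female OBVEGFKO cells, all 6 genes were higher in male cells, with log2 differences from 0.05 (*Mmp13*) to 1.26 (*Lama1*). Of the 6, *Itga2* (1.18) and *Lama1* were past 2-fold higher, against 4.88% of all wells. None was past 2-fold lower, against 11.0%. *Lama1* is 1 of the 20 wells whose highest Ct lay past 30 but below 35. Over these the robust SD was 0.87 in this comparison and 1.02 for the male minus the female effect of OBVEGFKO. Under the median Ct reference *Adamts2* and *Sparc* were past 2-fold higher as well, against 22.0% of the wells. The collagens gave 3 values above and 5 below 0 in the same comparison, which became 5 above and 3 below with the mean Ct and 7 above and 1 below with the median Ct of the array as the reference. Between WT cells, *Mmp13* was the 1 gene of the 6 past 2-fold higher in male cells (log2 1.03), against 3.75% of all wells, none was past 2-fold lower, against 8.75%, and the other 5 lay between −0.38 and 0.08. At an efficiency of 1.9 *Mmp13* fell under 2-fold, and 2.50% of the wells were past it. The male minus the female effect of OBVEGFKO was past 2-fold higher for *Itga2* (1.29) and *Lama1* (1.64), against 10.5% of the wells, and none was past 2-fold lower, against 6.58%. The value of *Mmp13* was −0.98. Without normalisation these became 0.87 for *Itga2*, which is under 2-fold, 1.22 for *Lama1* and −1.40 for *Mmp13*, which is past 2-fold lower. In that setting 5.26% of the wells were past 2-fold higher and 15.8% past 2-fold lower. Under the median Ct reference *Adamts2* and *Sparc* were also past 2-fold higher (23.7% of the wells), and under the mean Ct reference *Adamts2* was (13.2%). *Mmp13* was also past 2-fold lower with the offset from wells that never passed a Ct of 30 (7.89%).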

How the data were processed

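The authors deposited, for each of the 4 cultures, the Ct of 84 wells of an ECM and adhesion array (PAMM-013Z, run on a StepOnePlus instrument), to 2 decimals and not normalised. Threshold settings and a limit of detection are not given in the sources used here. A further table holds the authors' own linear fold changes for the 4 comparisons, normalised to housekeeping genes, and was not used. The study's methods normalise to housekeeping genes, and those wells were not analysed here, so the planned panel reference was used. The mean over cultures was subtracted from the Ct of each well that was always below 35 (76 wells), and the median of these differences was the offset of a culture. A log2 change is the difference in offset-corrected Ct with its sign turned, at an efficiency of 2 per cycle. A well at 35 in 1 culture gives a limit, and at 35 in both it gives no value. Medians and ranks use measured wells, and shares past 2-fold also count limits, of which those under 2-fold count as not past it. Genes named were the 8 collagens and, for collagen processing, binding and cleavage and the basement membrane, 6 genes the study names, with *Spp1* as an OB marker. The 3 most and the 3 least alike pairs were named, together with the pairs *Col4a1* and *Col4a2* and *Col1a1* and *Col3a1*, which were added after their values were seen. All members and lists were chosen with earlier results of these data known. Alternatives were other references, no normalisation, other sets of wells, an efficiency of 1.9 and thresholds of 1.5-fold and 4-fold. The script was tested on simulated data. With 1 culture per group no test was run and no p-value is given. All 8 symbols were found in the RefSeq gene table of GRCm38.p6 and 5 in the promoter windows (250 bases before to 50 after a start). Python 3.11.15, numpy 2.4.6, pandas 2.3.3 and matplotlib 3.10.9 were used.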

Additional observations from a re-analysis of the deposited data

Results flagged for a closer look

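Relative to the array, 4 collagens had effects of opposite sign in the cultures compared, and with 1 culture per group none of these differences was tested. The log2 change from WT to OBVEGFKO was −0.46 in female and 1.10 in male cells for *Col2a1*, a difference of 1.56. It was −0.01 and 0.37 for *Col1a1*, a difference of 0.38, and 0.05 and −0.29 for *Col4a1*, a difference of −0.34. The log2 difference between male and female cells was −0.02 in WT and 0.36 in OBVEGFKO cells for *Col1a1*, again a difference of 0.38, and 0.16 and −0.09 for *Col5a1*, a difference of −0.25. The robust SD of this difference over the 76 wells measured in all cultures was 0.46, so that *Col2a1* alone of the 4 genes exceeded it.
The opposite signs depended on the scaling. Without normalisation *Col1a1*, *Col2a1* and *Col4a1* were higher in OBVEGFKO cells of both sexes, the second of them by 2.86 and 4.00, and *Col1a1* was higher in males of both genotypes, by 0.41 and 0.37. The female change of *Col1a1* was 0.03 with the offset from wells that never passed a Ct of 30. With the mean Ct as the reference *Col4a1* was at −0.27 in female and −0.31 in male cells, and the difference of *Col5a1* between the sexes was 0.15 in WT and 0.20 in OBVEGFKO cells. *Col2a1* had opposite signs under every offset tried.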

How the results depend on the processing

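No replicate could be left out, since each group is 1 culture. No paired analysis was possible because the labels give no replicate numbers and each group holds 1 culture. A median counted as moved from a log2 shift of 0.1, a limit chosen after seeing the data, and a count from a change of over 1.5 times. With the median Ct of the array as the reference, the median of the collagens moved to 0.48 between male and female OBVEGFKO cells, with 1 of 8 at least 2-fold higher (22.0% of all wells), to −0.92 from female WT to OBVEGFKO, with 2 of 8 at least 2-fold lower (28.0%), and to 0.75 for the male minus the female effect, with 2 of 7 at least 2-fold higher (23.7%). With the mean Ct these medians moved to 0.12, −0.52 and 0.40. Without normalisation the median moved to 0.41 between the WT cultures, to −0.32 for the male minus the female effect, and to 3.12 in female and 2.78 in male cells from WT to OBVEGFKO, where 8 of 8 collagens, and 100% and 97.5% of the wells, were at least 2-fold higher. At 1.5-fold, 1 of 8 collagens was higher in female (18.3% of all wells) and 2 of 8 in male OBVEGFKO cells (13.6%). At 4-fold the counts of 1 in male OBVEGFKO cells (1.23%) and for the male minus the female effect (0.00%) became 0. No collagen median or count moved by these criteria in the following settings. They were offsets restricted to wells that never passed a Ct of 30 or made without the collagen wells, and an efficiency of 1.9. A further one was an offset without the 4 wells that departed by over 4 on the log2 scale, chosen after seeing the data. Leaving out wells at the limit moved no collagen count. Genes of collagen processing, binding and cleavage were not all so stable. Of these, *Itga2*, *Adamts2* and *Mmp13* crossed 2-fold in some of these settings, as given above, which changed the counts of that list. The difference of *Col2a1* between the sexes kept its direction under every scaling and efficiency. A Ct near 35 limits what can be said of *Col4a3*.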
